A study of Mus musculus with 6 samples.

Results

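Heat shock proteins and DnaJ proteins are the chaperones that fold, refold and sort other proteins, and they were followed here in 2 cell populations of young mouse muscle. The members were taken by gene symbol: Hspa, Hspb, Hspd1, Hspe1, Hsph1, the Hsp90 genes and the Dnaja, Dnajb and Dnajc genes. Of 18193 genes that had a probe set with 1 symbol, 70 were members, with 169 probe sets between them, and each gene was read from the probe set with its highest mean. In all, 57 members passed a filter on low values (an intensity above 16 on at least 3 of 6 arrays), among 10855 genes that did. Hsp90ab1 had no probe set with 1 symbol and was not analysed here.

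The populations are PICs, known in the field as PW1-positive interstitial cells, and satellite cells, the stem cells of skeletal muscle. Both were sorted by the submitters, from CD34 and Sca1 staining, out of digested hindlimb muscle of C57 black 6 mice that were 7 to 9 days old. The mice of both groups were untreated as far as the labels say, and carried no named allele. Each population has 3 biological replicates, numbered 1 to 3 in the labels, on 1 array each. Whether a replicate pools several mice is not given in the sources used here. Values are linear intensities, given below in the order of replicate numbers 1, 2 and 3. Each difference is the mean log2 intensity in PICs less that in satellite cells, so it is negative where satellite cells were higher.

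Chaperones work in teams. Hsp70 proteins bind unfolded stretches of a client and release them in a cycle driven by ATP. DnaJ proteins bring the clients and start ATP hydrolysis, while Hsp110 proteins, which are Hsp70 relatives, exchange the spent ADP. Hsp90 takes over clients that are nearly folded, the chaperonin of mitochondria encloses them in a chamber, and small heat shock proteins hold them without ATP. Each compartment has its own set: the endoplasmic reticulum has Hspa5 (BiP) and Hsp90b1 (Grp94), and mitochondria have Hspa9 (mortalin), Hspd1 (Hsp60) and Hspe1 (Hsp10). Heat shock factor 1 raises many cytosolic and mitochondrial members after heat or other damage, through heat shock elements. The unfolded protein response raises those of the endoplasmic reticulum, through other elements.

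Promoter stretches of some members are shown because both kinds of element can be read in them. They come from RefSeq on GRCm38.p6, in windows from 250 bases before to 50 bases after a listed start, and 57 of the 70 members had such a window. The endoplasmic reticulum stress element, CCAAT then 9 bases then CCACG, was searched on both strands and was found in 0.119% of 32851 promoter windows. It was in 3 members, Hspa5 at chr2:34772005-34772063 (plus strand), Hsp90b1 at chr10:86705513-86705676 (minus strand) and Dnajc3 at chr14:118937807-118937865 (plus strand). Each is written from 5′ to 3′ in the gene's direction, with the element in capitals, and Hsp90b1 holds 1 on each strand.
Hspa5: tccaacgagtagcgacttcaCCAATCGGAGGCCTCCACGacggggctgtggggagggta
Hsp90b1: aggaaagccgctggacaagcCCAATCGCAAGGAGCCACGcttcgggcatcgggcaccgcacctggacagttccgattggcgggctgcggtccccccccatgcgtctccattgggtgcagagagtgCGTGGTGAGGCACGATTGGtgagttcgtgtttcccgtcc
Dnajc3: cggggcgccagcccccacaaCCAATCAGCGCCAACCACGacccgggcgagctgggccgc

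The heat shock element is a row of alternating GAA and TTC units with 2 bases between them. A row of 3 units was in 0.603% of the promoter windows and in 4 members: Hspd1, Hspe1, Dnajb6 and, after its listed start, Hsph1. Rows of only 2 units are far more common, at 15.1% of windows, and were in 16 members. They include every row of 3. Hspd1 and Hspe1 lie head to head, with listed starts 216 bases apart. The capitals below are 1 run of 4 units, which holds 2 overlapping rows of 3. That run lies within chr1:55088053-55088082 and is read from the minus strand for Hspd1 and from the plus strand for Hspe1. The other stretches are Dnajb6 at chr5:29735832-29735884 (plus strand), Hspb1 at chr5:135887782-135887849 (plus strand), which has 2 separate rows of 2 units, and Hspa1b at chr17:34959315-34959362 (minus strand), which has 1.
Hspe1: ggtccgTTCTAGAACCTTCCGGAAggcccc
Hspd1: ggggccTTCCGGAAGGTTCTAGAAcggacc
Dnajb6: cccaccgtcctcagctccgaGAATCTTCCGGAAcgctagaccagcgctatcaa
Hspb1: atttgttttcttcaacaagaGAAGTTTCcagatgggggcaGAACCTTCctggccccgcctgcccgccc
Hspa1b: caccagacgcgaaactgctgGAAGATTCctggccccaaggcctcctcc

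A match is a description of these letters and not a measured binding site. The windows of Hspa1a and Hspa1b are identical at 296 of 300 bases, and these genes are near-identical copies, so their array signals may be shared.

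Before the members, the labelled populations were checked against their markers. All 11 satellite cell markers were higher in satellite cells, and Pax7, which defines these cells, had a log2 difference of -4.79. All 10 tested interstitial markers were higher in PICs at an adjusted p under 0.05, and Pdgfra had a difference of 3.92. Markers of each population were also read in the other. Satellite markers summed to intensities of 5068 to 7843 on PIC arrays against 41368 to 45934 on satellite cell arrays, and interstitial markers to 11432 to 17550 on satellite cell arrays against 62258 to 63854 on PIC arrays. These lists are not exclusive to 1 cell type: Dcn and Cd34 were bright on satellite cell arrays, while Clec3b and Twist2 were under the floor on all 3 of them. Whether the sorts shared cells was not tested. A bulk array cannot tell fewer cells of a type from less RNA per cell. Endothelial markers (10 genes) and blood markers (8 genes, 3 under the floor of 16 on all arrays) were not called between populations, but both were high on the arrays numbered 1. Endothelial markers summed to 7497, 5259 and 2144 in PICs and 5471, 3932 and 3812 in satellite cells, and blood markers to 1914, 226 and 88 in PICs and 2532, 148 and 91 in satellite cells. Schwann cell markers differed between the populations, with 3 of 6 called higher in PICs, none in satellite cells and a median of 1.56. They summed to 14231, 7307 and 3453 in PICs and 10537, 3851 and 4878 in satellite cells. Of 7 pericyte and smooth muscle markers, Cspg4 was called higher in PICs, at 2.23, and Des and Notch3, which are also satellite cell markers, in satellite cells. That list summed to 15221, 11827 and 6251 in PICs and 13925, 10090 and 12367 in satellite cells. The part of these cells in the differences of the members was not tested.

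Between the populations, members moved both ways. Those on the endoplasmic reticulum set that passed were higher in PICs. Those on the mitochondrial set that passed were higher in satellite cells. Both sets were chosen with earlier results of these data known. A gene was called at an adjusted p under 0.05 (limma, Benjamini-Hochberg over all 10855 genes) and a change of at least 2-fold. In PICs 4 members were higher (Hspa12b, Hspa12a, Dnajb9 and Dnajc1), in a comparison where 16.7% of all genes were called higher in PICs. In satellite cells 10 were higher (Hspb2, Hspb1, Dnajc15, Hspa9, Dnajc9, Dnajc11, Hspa4l, Dnajc2, Hspa4 and Dnajc7), against 13% of all genes. Together these were 24.6% of tested members and 29.8% of all genes, so the share of members called lay below that of all genes. By adjusted p alone, 13 members were higher in PICs and 16 in satellite cells, against backgrounds of 27.6% and 28.6%, and 28 members did not pass. The median member difference was -0.24, beside -0.04 over all genes.

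Arrays of the populations did not overlap for 13 members with higher PICs and 18 with higher satellite cells, against 31.3% and 33.2% of all genes. At each of the 3 replicate numbers the PIC array was higher for 19 members and the satellite cell array for 27, with 11 mixed. The same count was not made over all genes, so it is not read as a trait of the members.

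**Figure D1:**
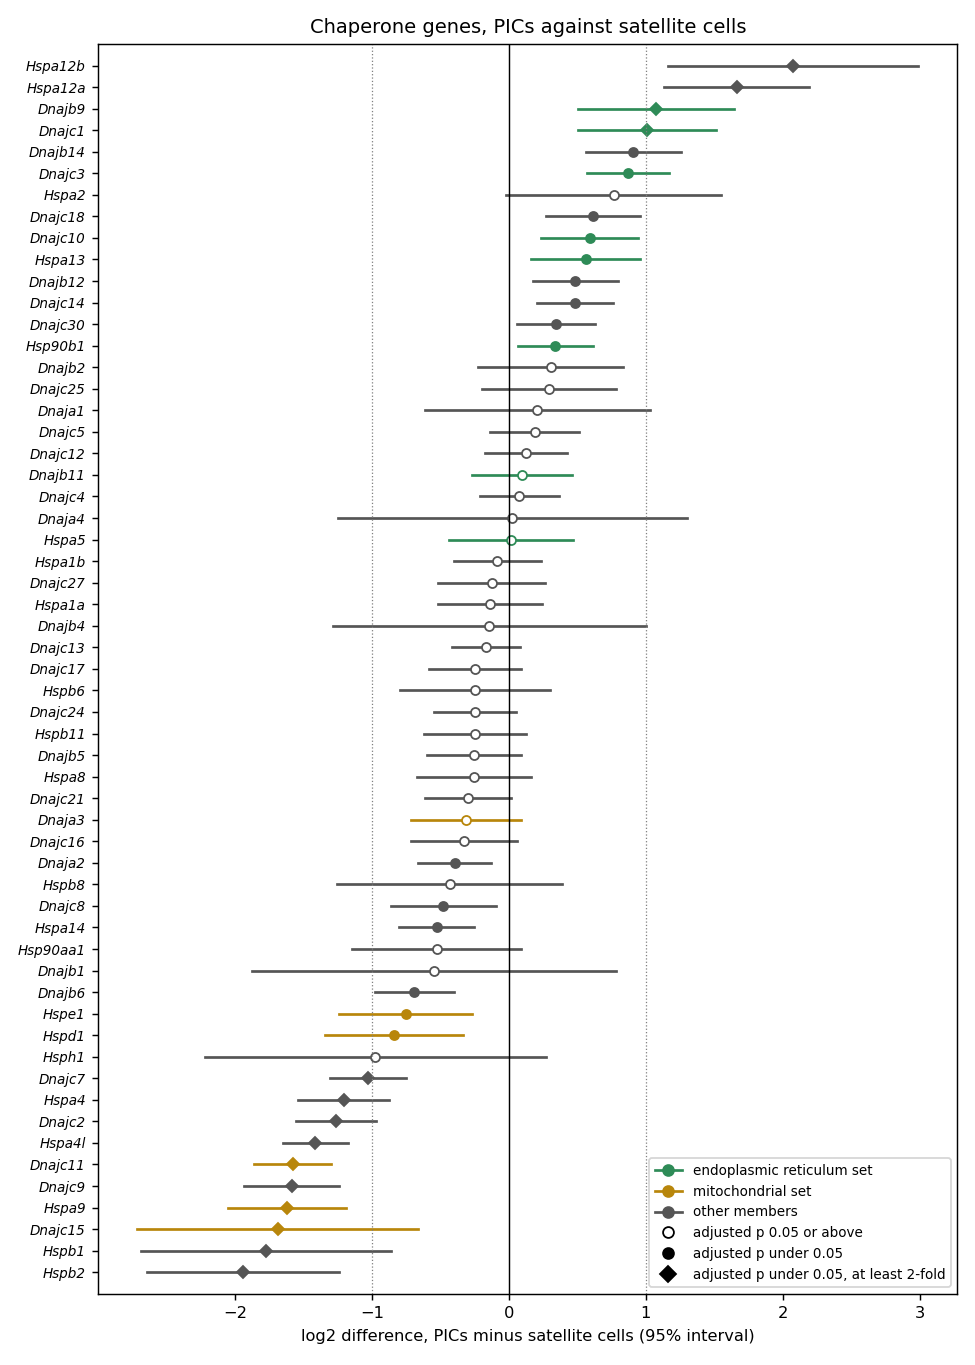
Log2 differences of the 57 tested members, PICs minus satellite cells, with 95% intervals from the limma fit; dotted lines mark a 2-fold change. Members of the endoplasmic reticulum set (green) all lie above 0, and those of the mitochondrial set (gold) all lie below 0. The sets were chosen with earlier results of these data known. Not on the first are Dnajb12, Dnajb14, Dnajc14 and Dnajc18, above 0, and Dnajc16, below 0. Dnajc30, not on the second, lies above 0.

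The members of the endoplasmic reticulum set were higher in PICs or level. Of the 8 members of this set, 6 were higher in PICs at an adjusted p under 0.05, none was higher in satellite cells, and the median difference was 0.58. Of all genes, 27.6% were higher in PICs by this rule. The 2 that did not pass were Hspa5 and Dnajb11. The count depended most on the arrays numbered 2: it was 3 without the PIC array numbered 2 and 1 without both arrays of that number. It was 4 without the satellite cell array numbered 1 or 2, or without both arrays numbered 1. With replicate number as a block, or without the filter on low values, it was 5. Calls at 2-fold towards PICs over all genes also fell, from 1815 in the reported fit. They were 1510 without the PIC array numbered 2 and 1321 without both arrays of that number. The count by adjusted p alone was not made over all genes in the leave-out fits.

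Dnajb9 (ERdj4), a DnaJ partner of BiP induced by the unfolded protein response, had the largest difference of the set on the probe sets used. It read 2319, 2647 and 3554 in PICs and 1165, 1136 and 1762 in satellite cells. Every PIC array lay above every satellite cell array, and both populations were highest at number 3. The difference was 1.08 (95% interval 0.50 to 1.65, adjusted p = 0.00857), or 2.11-fold. Dnajc1 (ERdj1), a membrane protein that sits near translating ribosomes, read 1260, 1322 and 886 in PICs and 676, 569 and 470 in satellite cells. It was also separated, by 1.01 (0.50 to 1.52, adjusted p = 0.00675), but was lowest at number 3 in both populations. On the probe sets used, both lie near the 2-fold line, and each lost its call when 1 of several arrays was left out. For Dnajb9 these were the PIC array numbered 3 and the satellite cell arrays numbered 1 and 2. For Dnajc1 they were the PIC arrays numbered 1 and 2 and the satellite cell array numbered 3. Dimmer probe sets of Dnajc1 were also separated, by 0.67 and 2.09 (adjusted p = 0.00905 and 0.000684 over all probe sets). The size of its difference thus depends on the probe set.

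The other members of the set that passed rose by less than 2-fold. Dnajc3 (p58IPK), a lumenal partner of BiP whose promoter stretch is shown above, read 1718, 1633 and 1870 in PICs and 926, 870 and 1064 in satellite cells, a difference of 0.87 (0.57 to 1.17, adjusted p = 0.00137). Dnajc10 (ERdj5), which reduces disulfide bonds, differed by 0.59 (adjusted p = 0.014), and Hspa13, a small Hsp70 of microsomes, by 0.56 (adjusted p = 0.0263). Hsp90b1 read 18907, 19567 and 17311 in PICs and 13815, 14464 and 15877 in satellite cells. On this probe set its groups did not overlap, though the gap was narrow. The difference was 0.34 (0.06 to 0.61, adjusted p = 0.0426, or 0.0571 with replicate number as a block). A dimmer probe set of Hsp90b1 read 3673, 3970 and 1051 in PICs and 1528, 1539 and 792 in satellite cells. Its groups overlapped, with a difference of 1.01 (adjusted p = 0.189 over all probe sets).

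Hspa5 itself was level. BiP's gene read 19689, 21769 and 27151 in PICs and 20080, 20311 and 27610 in satellite cells, so the populations overlapped and number 3 was highest in both. The difference was 0.02 (-0.43 to 0.47, adjusted p = 0.953). Another probe set gave 0.06, and a dim one, at 357 to 456 in PICs and 429 to 611 in satellite cells, gave -0.39, none past the threshold. Dnajb11 (ERdj3), another BiP partner, differed by 0.10 (-0.27 to 0.46). Among the 3 members with the stress element, Hspa5, Hsp90b1 and Dnajc3 thus had differences of 0.02, 0.34 and 0.87 on the probe sets used.

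Several DnaJ proteins anchored in the membrane of the endoplasmic reticulum were not on that set, and are described here after their values were seen. Dnajb12 and Dnajb14, which face the cytosol and help to clear misfolded membrane proteins, differed by 0.49 (adjusted p = 0.0182) and 0.91 (adjusted p = 0.00214). Dnajc14 differed by 0.48 (adjusted p = 0.0115) and Dnajc18, a relative of Dnajb12, by 0.62 (adjusted p = 0.0103). Dimmer probe sets of Dnajb12, Dnajb14 and Dnajc18 gave 0.64, 0.80 and 0.15 with overlapping groups (adjusted p = 0.317, 0.285 and 0.694 over all probe sets). With the mean of all passing probe sets, these 3 genes were no longer under 0.05. Dimmer probe sets of Dnajc14 gave 0.56 and 0.72 (adjusted p = 0.027 and 0.0139 over all probe sets). Dnajc16 had a difference of -0.33 (adjusted p = 0.127, or 0.0426 with replicate number as a block). A dimmer probe set of Dnajc16 gave -0.83 (adjusted p = 0.0237 over all probe sets).

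Other genes of folding in the endoplasmic reticulum and of the unfolded protein response, on a list without the members, were counted the same way. Of 24 tested, 15 were higher in PICs at an adjusted p under 0.05 and none in satellite cells, 5 of the 15 were called at 2-fold, and the median was 0.65. Of all genes, 27.6% were higher in PICs by adjusted p and 16.7% were called higher in PICs. Differences on the list were above 0 for 21 genes and below 0 for 3. Among the 3 was Hyou1, at -0.31 (adjusted p = 0.104), whose groups did not overlap. The largest called differences were 2.36 for Pdia5, a disulfide isomerase, and 1.82 for Eif2ak3, which encodes the stress sensor PERK. Xbp1, the factor spliced by the sensor Ern1, differed by 0.76 (adjusted p = 0.00247), and Atf4, the factor translated downstream of PERK, by -0.05 (adjusted p = 0.877).

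Tested members of the mitochondrial set lay towards satellite cells. All 6 tested members of that set had negative differences, 5 of them at an adjusted p under 0.05 and 3 of them called, and the median was -1.21. Of all genes, 28.6% were higher in satellite cells by adjusted p. The count past adjusted p was 3 without the satellite cell array numbered 1 or 2 or without both arrays numbered 1. It was 2 without both arrays numbered 2 or without the filter on low values. Calls at 2-fold towards satellite cells over all genes also fell, from 1415 to 1318, 1202, 1256, 1036 and 1329 in that order.

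Hspa9, the Hsp70 of the matrix and of the import motor, read 1673, 1474 and 2185 in PICs and 4746, 5549 and 5936 in satellite cells. No PIC array reached 0.5 of the lowest satellite cell array. The difference was -1.62 (-2.05 to -1.19, adjusted p = 0.000475), or 3.07-fold. Dnajc11, a J protein bound to the cristae-organizing complex, read 174, 172 and 203 against 520, 548 and 566, a difference of -1.58 (-1.86 to -1.30, adjusted p = 0.000125). Its arrays were tight within each population, with log2 SDs of 0.13 in PICs and 0.06 in satellite cells (n = 3 each). Dnajc15, which regulates protein import at the inner membrane, read 168, 157 and 61 in PICs and 462, 421 and 275 in satellite cells. Its arrays were separated but spread, and its difference of -1.69 (-2.71 to -0.66, adjusted p = 0.0148) lost its call without the satellite cell array numbered 1 or 2.

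The chaperonin pair shared a direction. Hspd1 read 3957, 5335 and 5895 in PICs and 7672, 11079 and 8388 in satellite cells, and differed by -0.84 (-1.34 to -0.34, adjusted p = 0.014). Hspe1, its lid, read 1437, 1927 and 1933 against 2987, 3614 and 2376, and differed by -0.75 (-1.24 to -0.27, adjusted p = 0.0186). Neither pair of groups overlapped on the probe sets used, though Hspe1 came close at number 3. The probe set used for Hspe1 has a suffix marking possible hybridisation to related transcripts. A dim one without a suffix read 21, 28 and 26 in PICs and 37, 43 and 28 in satellite cells, so its groups met. It gave -0.51 (adjusted p = 0.0771 over all probe sets). Dnaja3 (Tid1), the DnaJ partner of Hspa9, differed by -0.31 (-0.72 to 0.09, adjusted p = 0.155) with overlapping groups. Dnajc30, a mitochondrial J protein that was not on the set, went the other way, at 0.34 (adjusted p = 0.0452, or 0.0581 with replicate number as a block).

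**Figure D2:**
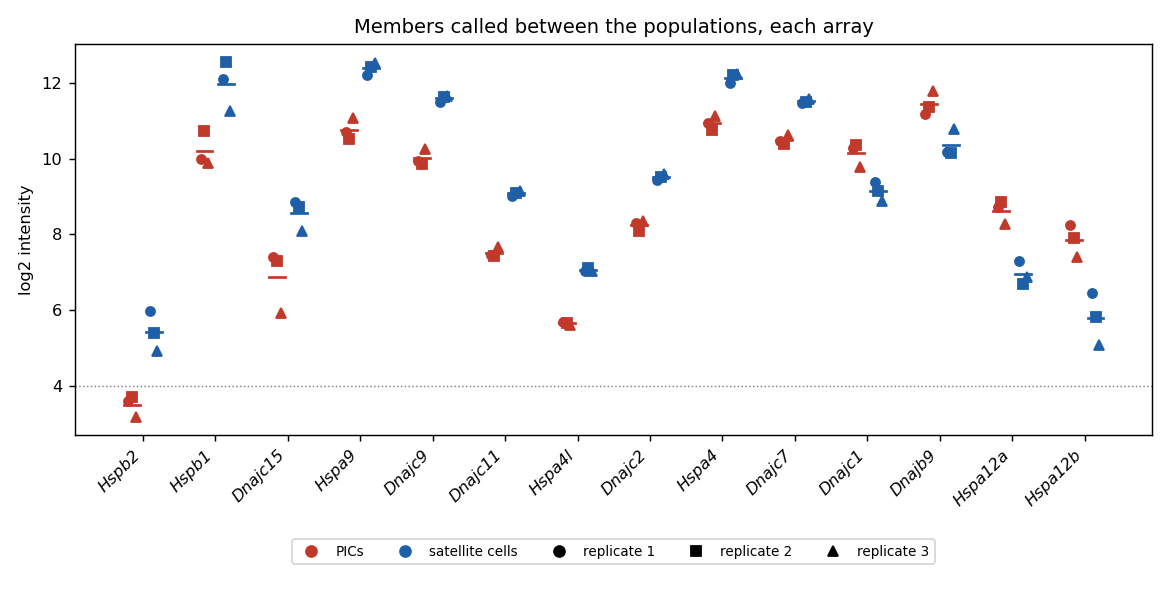
Log2 intensity of the 14 called members on each array, with PICs in red and satellite cells in blue, the marker shape giving the replicate number, bars the group means and the dotted line the floor of 4. For each gene all 3 arrays of one population lie above those of the other, and only Hspb2 has a group, its PICs, wholly under the floor.

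Other members called higher in satellite cells act in the cytosol or nucleus. Hspa4 and Hspa4l are Hsp110 exchange factors. Hspa4 read 1976, 1750 and 2229 in PICs and 4091, 4761 and 4836 in satellite cells, a difference of -1.20 (-1.54 to -0.87, adjusted p = 0.000543). Hspa4l was much dimmer and very even, at 51, 50 and 49 against 131, 138 and 130, a difference of -1.41 (-1.65 to -1.17, adjusted p = 0.000106). Hsph1, the heat-inducible member of the family, read 2429, 4710 and 8026 in PICs and 5104, 12714 and 10733 in satellite cells. Its groups overlapped because the arrays numbered 1 were lowest in both, and its difference of -0.97 (-2.22 to 0.27) had an adjusted p of 0.154, or 0.0155 with replicate number as a block. At each number the PIC array was lower, by differences of -1.07, -1.43 and -0.42.

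Dnajc2 and Hspa14 form a chaperone complex on the ribosome. Dnajc2 read 318, 272 and 328 in PICs and 694, 731 and 772 in satellite cells, and differed by -1.26 (-1.55 to -0.97, adjusted p = 0.000274). Hspa14 changed less, by -0.53 (-0.80 to -0.25, adjusted p = 0.00797). Dnajc9, which chaperones histones in the nucleus, read 982, 927 and 1237 against 2926, 3192 and 3264, a difference of -1.59 (-1.93 to -1.24, adjusted p = 0.000229). Dnajc7, which binds both Hsp70 and Hsp90, read 1429, 1334 and 1589 against 2860, 2908 and 3091. At -1.03 (-1.30 to -0.75, adjusted p = 0.000482) it sat on the 2-fold line. It kept its adjusted p but not its call without the PIC array numbered 2 or the satellite cell array numbered 3, or with cyclic loess scaling.

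Of the remaining members outside these sets, 3 were higher in satellite cells by adjusted p alone. Dnajb6, which suppresses aggregates and whose human gene is mutated in a muscular dystrophy, differed by -0.69 (-0.98 to -0.40, adjusted p = 0.00319). Dnajc8, a splicing protein, differed by -0.48 (adjusted p = 0.0407). Dnaja2, a general Hsp70 partner, read 3503, 3284 and 3145 in PICs and 4113, 4287 and 4673 in satellite cells, a difference of -0.40 (adjusted p = 0.0217). Of its 4 passing probe sets, 3 had negative differences and the dimmest, at 305 to 425 in PICs and 323 to 398 in satellite cells, had one of 0.004.

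Related cytosolic chaperones outside the members were tested from lists of other genes. Of 16 tested genes for the TRiC chaperonin, which folds actin and tubulin, and its helper prefoldin, 12 were higher in satellite cells at an adjusted p under 0.05 and none in PICs, with a median of -0.81. Of all genes, 28.6% were higher in satellite cells by this rule. Cct8 and Cct3, subunits of TRiC, had the largest called differences, -1.16 and -1.08. Among 30 co-chaperones of Hsp70 and Hsp90, 1 was higher in PICs and 10 in satellite cells by adjusted p. Of all genes, 27.6% were higher in PICs and 28.6% in satellite cells. Together 36.7% of the co-chaperones passed, beside 56.3% of all genes, and their median was -0.27. The only one called was Trap1, the Hsp90 of mitochondria, at -1.30 (adjusted p = 0.000791). Among 13 heat shock factors and heat-inducible partners, 2 were higher in PICs and 3 in satellite cells by adjusted p, together 38.5%. Serpinh1 (Hsp47), the collagen chaperone, was called at 1.02 in PICs, and Cryab, a small heat shock protein of muscle, and Stip1 (Hop), which links Hsp70 to Hsp90, at -1.83 and -1.39 in satellite cells.

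**Figure D3:**
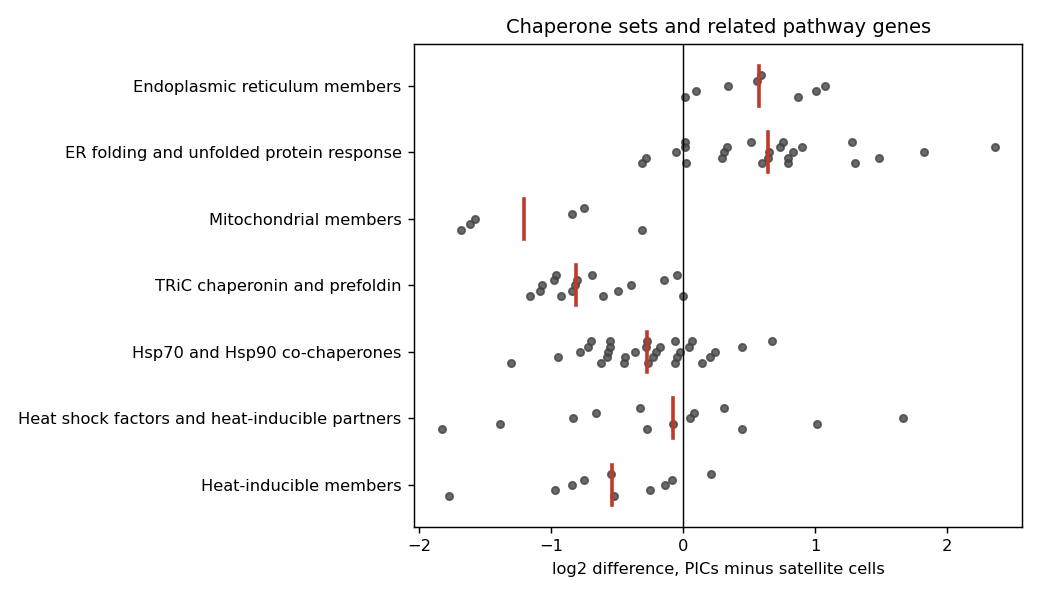
Log2 differences, PICs minus satellite cells, of tested genes in 3 sets of members and 4 lists of other chaperone genes, 1 dot per gene, with a red bar at each median. The lists for the endoplasmic reticulum lie mostly above 0 (medians 0.58 and 0.65), the mitochondrial members and TRiC below it (-1.21 and -0.81).

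Of 8 small heat shock genes, 5 passed the filter and 2 had an adjusted p under 0.05, both towards satellite cells. That is 40% of only 5 tested genes, beside 28.6% of all genes that were higher in satellite cells by adjusted p. Hspb1 (Hsp27), which binds actin and holds unfolding proteins, read 1016, 1698 and 955 in PICs and 4419, 6081 and 2462 in satellite cells. Every satellite cell array was above every PIC array, and number 2 was highest in both populations. The difference was -1.78 (-2.69 to -0.86, adjusted p = 0.0075), or 3.42-fold, and the call was lost without both arrays numbered 1. Hspb2, a muscle-enriched member, read 12, 13 and 9 in PICs, all under the floor, and 63, 42 and 30 in satellite cells. With the PIC level set at the floor, satellite cells were at least 2.69-fold higher. It passed the filter only through its satellite cell arrays, and the fit on its measured values gave an adjusted p of 0.00165, or 0.0158 when no filter was set. Muscle fibre markers summed to 11413, 7197 and 5232 on the satellite cell arrays and to 6817, 7688 and 8198 on the PIC arrays, but that list was split, with 6 of 14 genes called higher in PICs, 5 in satellite cells and a median of 1.08 towards PICs. Their part in the level of Hspb2 was not tested.

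Hspb8, which works with Bag3 in clearing proteins, had a difference of -0.43 (-1.25 to 0.39, adjusted p = 0.321, or 0.0262 with replicate number as a block). Hspb6 (Hsp20) and Hspb11, which despite its name is a ciliary transport protein, had differences of -0.24 and -0.25. The muscle genes Hspb3 and Hspb7 stayed at an intensity of 6 on all arrays, and Hspb9 at 5 to 6.

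Hspa12a and Hspa12b, distant Hsp70 relatives with an atypical ATPase domain, had the 2 largest differences towards PICs. Hspa12a read 422, 464 and 308 in PICs and 156, 103 and 118 in satellite cells, a difference of 1.66 (1.13 to 2.19, adjusted p = 0.00096), or 3.17-fold. Hspa12b, known from endothelial cells, read 306, 241 and 169 in PICs and 87, 56 and 34 in satellite cells. The groups did not overlap, and number 1 was highest and number 3 lowest in both. Its difference was 2.08 (1.17 to 2.99, adjusted p = 0.00385), or 4.22-fold, and its call was lost without both arrays numbered 2. The endothelial marker sums given above were likewise highest at number 1 and lowest at number 3 in each population, and none of the 10 endothelial markers was called between the populations, with differences from -0.29 to 0.27; the part of endothelial cells in the level of Hspa12b was not tested.

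The members most used as signs of heat shock were very bright in both populations and mostly did not pass between them. Of 10 heat-inducible members, none was higher in PICs and 3 were higher in satellite cells (Hspb1, Hspd1 and Hspe1), with a median of -0.54. That is 30% of the set, near the 28.6% of all genes that were higher in satellite cells. Hspa8, the constitutive cytosolic Hsp70, read 29080, 32267 and 43008 in PICs and 38109, 40186 and 44625 in satellite cells. Hspa1a and Hspa1b, the inducible Hsp70 genes, read 13799, 17233 and 18827 and 25084, 30256 and 31818 in PICs. In satellite cells they read 17037, 20507 and 17046 and 29457, 32766 and 29743. The groups overlapped for all 3 genes, with differences of -0.25 (-0.67 to 0.16), -0.14 (-0.52 to 0.24) and -0.08 (-0.40 to 0.23). Cyclic loess scaling turned the differences of Hspa1a and Hspa1b to above 0.

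The probe sets of Hspa8 did not share a direction. In addition to the one used, a pair gave -0.37 and -0.28, and a dimmer one, at 987 to 1039 in PICs and 693 to 876 in satellite cells, gave 0.38 with an adjusted p of 0.0463 over all probe sets. That probe set alone has no suffix marking hybridisation to related transcripts. Its PIC arrays were all above its satellite cell arrays, so the sign for Hspa8 depends on the probe set.

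Hsp90aa1, the inducible cytosolic Hsp90, read 10018, 14741 and 18653 in PICs and 16490, 22658 and 22077 in satellite cells on its brightest probe set. The groups overlapped there, and the difference was -0.53 (-1.14 to 0.09, adjusted p = 0.124, or 0.0231 with replicate number as a block). On 2 dimmer probe sets they did not overlap, with differences of -1.17 and -0.95 (adjusted p = 0.0347 and 0.039 over all probe sets). Among the Hsp40 partners, Dnajb1 read 2203, 4701 and 8732 in PICs and 4046, 9912 and 7006 in satellite cells, and Dnaja1 read 5958, 7731 and 12701 against 5167, 7652 and 9586. On these probe sets both overlapped, with differences of -0.55 (-1.87 to 0.78) and 0.21 (-0.61 to 1.03). The spread inside a population there exceeded the difference between populations in both genes. On 2 dimmer probe sets of Dnaja1 every PIC array lay above every satellite cell array. Their differences were 0.44 and 0.41 (adjusted p = 0.0697 and 0.0389 over all probe sets). A dimmer probe set of Dnajb1 overlapped, at -0.46.

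Over all members with several passing probe sets, directions mostly held. There were 38 such members, and in 33 all passing probe sets pointed one way. The exceptions were Hspa5, Hspa8, Dnaja2, Dnaja4 and Dnajb4, and no member had probe sets past the threshold in both directions.

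The arrays were next compared across replicate numbers, in a fit with population and number. The labels do not say what a number stands for. No member was called by number (adjusted p under 0.05 and a range of at least 1 between number means), where 0.544% of all genes were. At an unadjusted p under 0.05, 16 members (28.1%) passed, against 17.9% of all genes, and the smallest adjusted p was 0.0908, for Dnajb4. A range of at least 1 was reached by 7 members (12.3%), against 6.01% of all genes: Hsph1, Dnajb1, Dnajb4, Dnaja4, Hspa12b, Dnajc15 and Hspb1.

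None of the 10 heat-inducible members passed the test across numbers. Hsph1 had the widest range between number means, 1.40 or 2.64-fold (adjusted p = 0.171), followed by Dnajb1 at 1.39 (adjusted p = 0.241), while Dnaja1 spanned 0.99 (adjusted p = 0.128). In all 3 genes number 1 was lowest in both populations. The array numbered 1 was lowest in both populations for 8 of the 10 heat-inducible members. Hspb1 was lowest at number 3 in both, and Hspe1 at number 1 in PICs and number 3 in satellite cells. The same held for 24 of the 57 members (42.1%), for 16 of the 47 outside the heat-inducible set (34%) and for 23.5% of all genes. This count was chosen after the values were seen and carries no test.

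Dnajb4 and Dnaja4, J proteins close to Dnajb1 and Dnaja1, were not on the heat-inducible list and ranged as widely. Dnajb4 read 1076, 1236 and 2847 in PICs and 1091, 1673 and 2793 in satellite cells, so number 3 was highest in both by more than the populations differed. Its range was 1.38 or 2.6-fold, and its population difference was -0.14 (-1.29 to 1.00). Dnaja4 read 174, 262 and 407 in PICs and 139, 523 and 242 in satellite cells, which shared only the low number 1. Its range was 1.25 (adjusted p = 0.327), and its population difference was 0.03 (-1.25 to 1.30). Second probe sets of both genes had population differences of the other sign, 0.03 and -0.15, neither past the threshold.

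Genes of the early response to handling, which rise within minutes of stress or tissue digestion, also varied across numbers. Their summed intensity was 110374, 166702 and 268560 in PICs and 114724, 165156 and 226021 in satellite cells. Of 22 tested, 21 (95.5%) were lowest at number 1 in both populations, 20 had an unadjusted p under 0.05 for number, and 4 were called across numbers (Fosb, Egr2, Nr4a1 and Socs3). For comparison, the heat-inducible members summed to 94981, 120599 and 150548 in PICs and 130488, 167169 and 154042 in satellite cells. Blood and endothelial markers ran the opposite way, as given above. Whether handling or other cells had a part in the number pattern of the chaperones was not tested. On the list for the unfolded protein response, Ddit3 (CHOP) was the only gene called across numbers, with a range of 1.55 (adjusted p = 0.047).

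**Figure D4:**
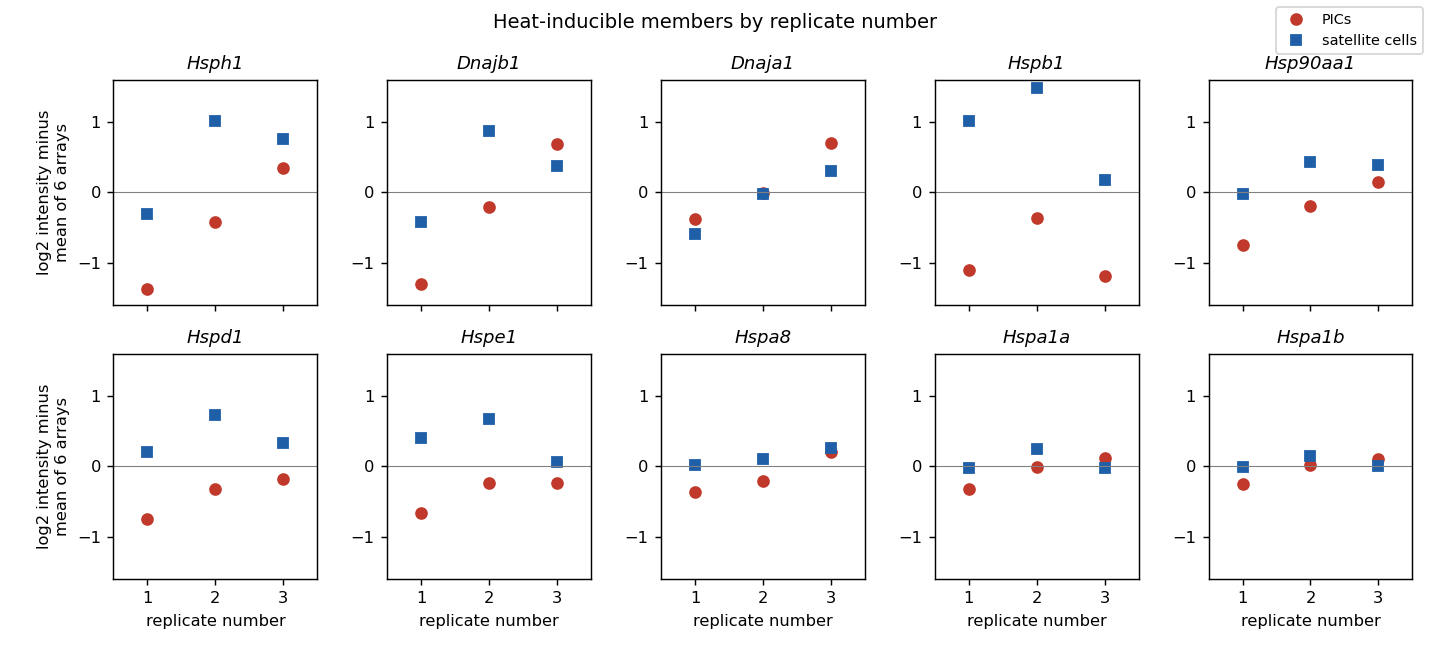
Log2 intensity of the 10 heat-inducible members on each array minus that gene's mean over 6 arrays, by replicate number, with PICs as red circles and satellite cells as blue squares. Number 1 is the lowest point of both populations in 8 panels; in Hspb1 and Hspe1 number 3 is the lowest satellite cell array.

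With the replicate number as a block, the 14 called members stayed called. With this replicate block, 13 members passed adjusted p alone towards PICs, against 31% of all genes, and 21 towards satellite cells, against 32.4%. It brought 7 members under 0.05: Hsph1 (adjusted p = 0.0155), Hsp90aa1 (0.0231), Hspb8 (0.0262), Dnajc16 (0.0426) and Dnajc21 (0.043) towards satellite cells, and Hspa2 (0.00416) and Dnajc25 (0.0482) towards PICs. It took 2 above it, Hsp90b1 (0.0571) and Dnajc30 (0.0581). Heat-inducible members higher in satellite cells went from 3 to 5. Hspa2, a testis-enriched Hsp70 also found elsewhere, read 234, 272 and 486 in PICs and 153, 163 and 253 in satellite cells, higher in PICs at each number by 0.61, 0.74 and 0.94.

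**Figure D5:**
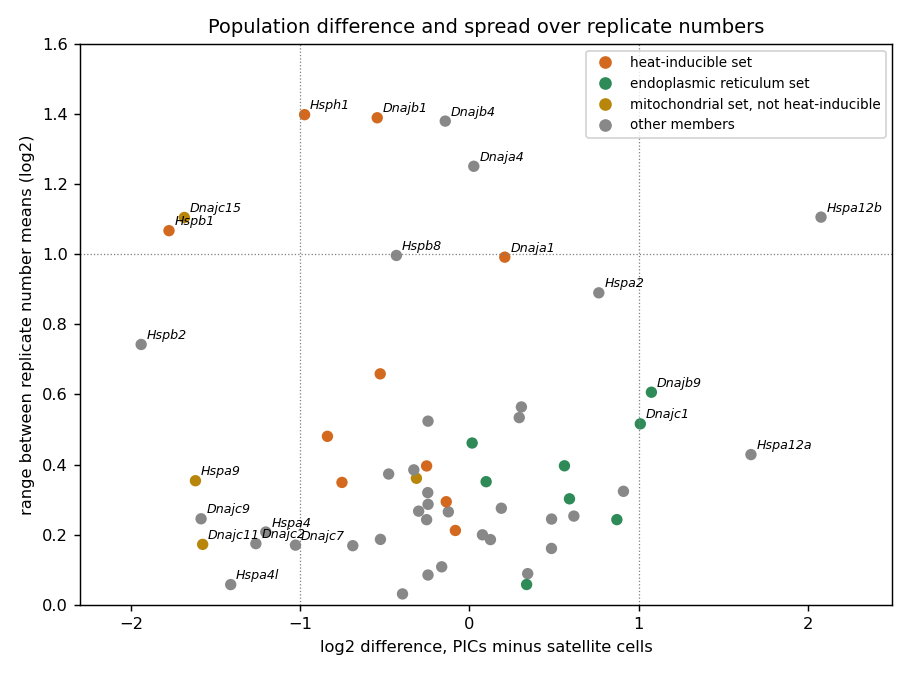
Each tested member's log2 difference between populations (horizontal, PICs minus satellite cells) against the range between its 3 replicate number means (vertical, log2), coloured by set, with dotted lines at 1 and -1. Hsph1, Dnajb1, Dnajb4 and Dnaja4 had ranges of 1.25 to 1.40 across numbers with differences between populations inside the lines, while Hspa9, Dnajc9, Dnajc11 and Hspa4l had large differences between populations and ranges of at most 0.35.

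The remaining tested members did not pass between populations in either fit, on the probe sets used. They were Dnajb2, a neuronal J protein, Dnajb5, Dnajc4, Dnajc5, which guards synaptic vesicle fusion, Dnajc12, Dnajc13, which acts on endosomes, Dnajc17, a splicing protein, Dnajc24, which serves diphthamide synthesis, and Dnajc27. Their differences ran from -0.25 to 0.31. Dimmer probe sets of Dnajc17 and Dnajc24 did separate, towards satellite cells. They gave -0.56 and -0.57 (adjusted p = 0.0274 and 0.0405 over all probe sets). Dnajc12 and Dnajc27 were barely above the floor, at 17 to 22 and 18 to 26. Beside the 3 small heat shock genes named above, 10 members did not pass the filter: Hspa1l, Dnajb3, Dnajb7, Dnajb8, Dnajb13, Dnajc5b, Dnajc5g, Dnajc6, Dnajc22 and Dnajc28. All of these read between 3 and 12 on every array, with Dnajc6 (auxilin), which uncoats clathrin vesicles, the brightest at 10 to 12. Several are known from testis, such as Hspa1l, Dnajb3 and Dnajb13.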

How the data were processed

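Values are intensities that the authors deposited, made with GCRMA per the submitters' processing notes (background correction, quantile normalization, 1 value per probe set); 200 ng of RNA was labelled per array. They are whole numbers with a median of 10 on each array. Here they were taken to log2. A probe set was kept above 4 on at least 3 arrays, and a gene was read from its brightest kept probe set with 1 symbol. limma 3.58.1 in R 4.3.3 (lmFit, eBayes, two-sided, Benjamini-Hochberg) was run on all 10855 genes, after a check on simulated data. Intervals are 95%. Of the probe sets used for members, 19 have a suffix marking possible hybridisation to related transcripts.

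Members and lists were chosen with earlier results of these data known. Values on each array are given for called members, chosen main chaperones and members whose probe sets disagreed; other lists are named by their largest called differences.

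Replicate numbers paired the arrays: deviations from group means correlated at 0.62, 0.22 and 0.58 between same-numbered arrays and at -0.57 to 0.04 between others, a pairing the labels do not explain. The number of arrays limits precision. Scan dates were not used here. The p-values set each difference against the spread between these samples. Without the block, that spread includes the variation between replicate numbers.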

Additional observations from a re-analysis of the deposited data

How the results depend on the processing

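Of 18 alternatives, the replicate block kept the called members at 4 higher in PICs and 10 in satellite cells, with 13 and 21 by adjusted p. The median member difference was 0 when no filter was set, since members at the floor enter. With array weights 29 members were higher in satellite cells by adjusted p, a count not made over all genes in that fit. By the 2-fold rule that fit called 2006 of all genes in PICs and 1532 in satellite cells. The cause of the count of 29 was not tested. With 1 array, or both arrays of a number, left out, 1 to 4 members were called higher in PICs and 7 to 10 in satellite cells, 2 to 13 and 8 to 19 passed adjusted p alone, and the median ran from -0.27 to -0.12. The lowest counts came without both arrays numbered 2 (1 called higher in PICs, 2 and 8 by adjusted p). The counts by adjusted p were 7 and 9 without both arrays numbered 1, and the PIC count was 8 without the PIC array numbered 2. Calls over all genes were also lowest without both arrays numbered 2, at 1321 in PICs and 1036 in satellite cells of 10428 genes. The reported fit called 1815 and 1415 of 10855. Counts by adjusted p alone were not made over all genes in the leave-out fits. All leave-out fits have fewer arrays. No member was called across numbers under any alternative in which that test was run; the block and array weights have no such test. Hspa8 turned to 0.38 with only probe sets that have no suffix, the only change of sign that passed adjusted p. Hspa5, Hspa1a, Hspa1b, Dnaja1, Dnaja4, Dnajb4, Dnajb11 and Dnajc27 also changed sign under at least 1 alternative, without passing there or in the reported fit. Hspa9, Hspa4, Hspa4l, Hspa12a, Dnajc2, Dnajc9 and Dnajc11 stayed called under each alternative that tested them. Hspb2 was tested, and called, in 10 of 18; in the others its probe set did not enter the fit, through the filter, which it meets only by its satellite cell arrays, or its suffix. Dnajc1 lost its call with log2 of intensity plus 16, and Dnajc15 without the filter. Intensities near the floor are coarse in log2 because the values are whole numbers.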
